A study of Mus musculus with 2 samples.

Results

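The 8 caspase and apoptosome genes Casp1, Casp6, Casp9, Casp12, Apaf1, Cycs, Diablo and Xiap were followed in single-cell 3' RNA profiles of colonic epithelial cells from C57BL/6 mice. They were taken by name from the 17829 genes of the deposited count matrix, which held all 8. The libraries came from live EpCAM-positive cells sorted by flow cytometry, 1 library of genotype Mettl14 KO with 3653 cells and 1 library of genotype Mettl14 WT with 4210 cells, and the series text gives an age or time of 2 weeks without saying from when. The labels name no Cre driver, no deleted exon and no number of animals. The METTL14 protein partners METTL3 in depositing m6A on RNA. With 1 library a genotype no test of genotype exists, so each difference compares these libraries. Every 95% interval covers counting error only, and not the variation between animals or preparations.

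Caspases are cysteine proteases made as inactive precursors. In the intrinsic pathway of apoptosis, cytochrome c (Cycs) leaves the mitochondria and binds Apaf1, which assembles into the apoptosome and activates the initiator caspase Casp9. Xiap binds and inhibits Casp9 and the effector caspases, and Diablo (also called Smac), released from mitochondria with cytochrome c, relieves that inhibition. Casp6 is an effector caspase that cleaves nuclear lamins. Casp1 is the protease of the inflammasome, which matures interleukin-1β and interleukin-18 and cleaves gasdermin D, and Casp12 is a mouse caspase of the same group that was first tied to endoplasmic reticulum stress. In the colon, surface epithelial cells are continuously lost and replaced, and epithelial inflammasomes take part in defence against microbes.

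The KO library held 37635762 UMIs with a median of 9119 a cell, and the WT library held 60205658 UMIs with a median of 12094 a cell. Only 2 cell barcodes occurred in both libraries. Epcam UMIs were found in 99.2% of KO cells and 97.8% of WT cells. Mettl14 itself stood at 5.34 CPM (201 UMIs) in the KO library, against 10.5 CPM (632 UMIs) in the WT library, where CPM is the count per 1000000 UMIs of the summed cells. By cluster, Mettl14 was at least 1.5-fold lower in KO cells in clusters 1 to 4. In cluster 0, with 8.17 CPM in KO cells and 10.5 CPM in WT cells, its log2 ratio of −0.36 (−0.83 to 0.10) had an interval that included equal levels, as did that of cluster 5 at −0.39 (−1.64 to 0.81) on 11 KO and 16 WT UMIs. Clusters are numbered in the deposited table. From marker genes, 1 and 2 were goblet-like, 3 was cycling-like, 4 was colonocyte-like and 5 was enteroendocrine-like. Cluster 0 is given by its number, because its leading genes were pancreatic enzymes and it held 33 WT cells rich in them, and cluster 6, with 31 KO cells, was too small to compare.

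Over all cells none of these caspase and apoptosome genes with enough UMIs reached a 1.5-fold difference. For 6 of 7 the interval excluded equal levels, but the share of all genes with such an interval was not computed. A gene counted as higher or lower when it had at least 50 UMIs over both libraries, was at least 1.5-fold apart and had an interval that excluded equal levels. Of the 8 members, 7 had enough UMIs and 1, Casp12, did not. By this rule 0 of the 7 were higher and 0 were lower. Casp12 stood 3.57-fold below WT on 7 KO and 40 WT UMIs, and 1 member was called lower under each of 4 other settings, given with the processing alternatives. Among all 13334 genes with enough UMIs, 16.7% were higher and 16.2% were lower in the KO library. The median log2 ratio of KO CPM over WT CPM was −0.18 for the 7 members and −0.04 for all measured genes. Cycs and Casp6 stood above equality, Casp1, Xiap, Casp9 and Diablo stood below it, and the interval of Apaf1 included it. Casp1 lay nearest to the threshold, at 1.45-fold, and passed it at −0.60 under a scaling with no mitochondrial, haemoglobin or ribosomal-protein genes, which shifts every ratio by −0.07.

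**Figure D1:**
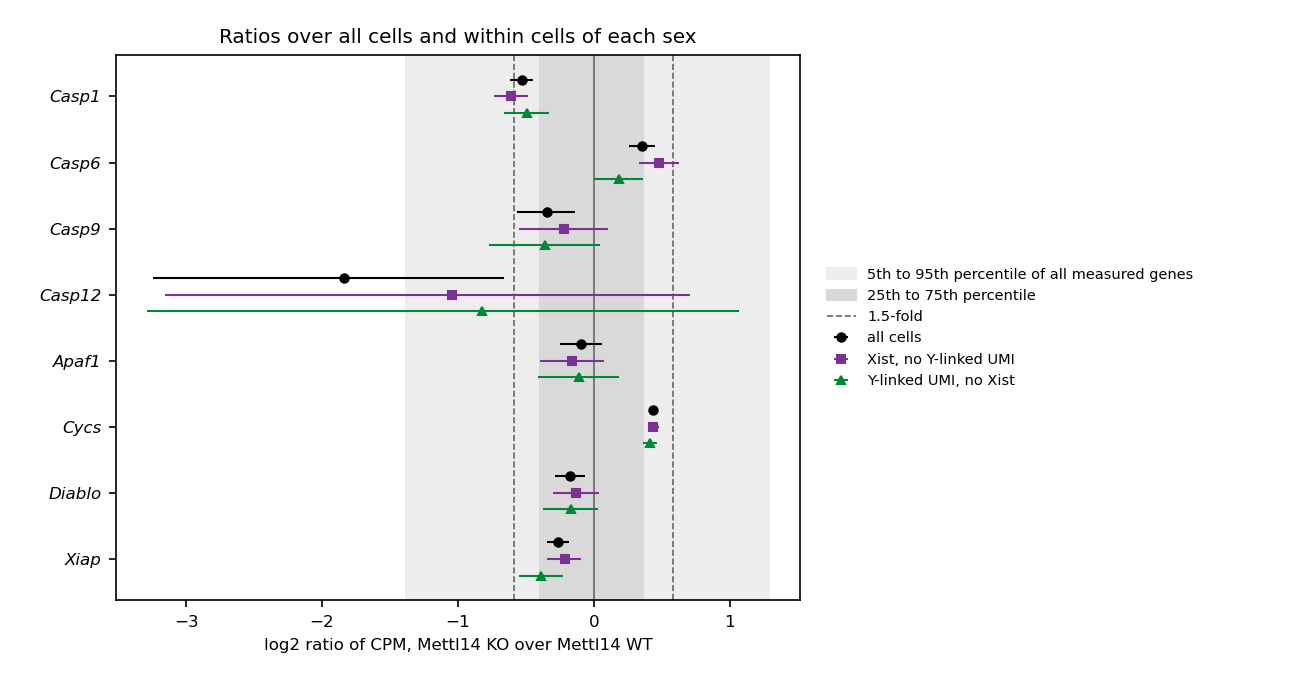
The log2 ratio of KO CPM over WT CPM (horizontal axis) is plotted for each of the 8 genes over all cells (circles), in cells called female (squares) and in cells called male (triangles) from Xist and Y-linked UMIs, with 95% counting intervals. Shaded bands give the spread of all measured genes and dashed lines mark 1.5-fold. Casp1 and Xiap lie left of 0 and Cycs and Casp6 right of 0 in all 3 sets of cells, and Casp12 has the widest intervals.

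Both libraries held cells of each sex as told by Xist and Y-linked UMIs. Cells called female (1696 KO, 1689 WT) had 3 or more UMIs of Xist and none of 4 Y-linked genes, and cells called male (996 KO, 1540 WT) had UMIs of the Y-linked genes but none of Xist. The ratio of each member had the same sign in both sets as over all cells. These sets are cells of the same libraries and are not replicates.

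Of the members, Casp1 was the one with enough UMIs that stood furthest below its WT level. It had 1613 UMIs, or 42.9 CPM (40.8 to 45.0), in the KO library, against 3729 UMIs, or 61.9 CPM (60.0 to 64.0), in the WT library. The log2 ratio was −0.53 (−0.62 to −0.45), and 18.9% of all measured genes had a lower ratio. In female cells it was −0.61 (−0.73 to −0.48) and in male cells −0.49 (−0.66 to −0.33). The summed CPM of 10 immune marker genes of each compared cluster was higher in KO than in WT cells, ranging from 47.8 to 227 CPM in KO clusters and from 30.5 to 130 CPM in WT clusters, and the T cell genes Cd3e or Cd3g were at 0 in at least 1 library of each cluster. Without the 192 KO and 202 WT cells that held at least 2 of these markers, the Casp1 ratio was −0.53 (−0.62 to −0.45).

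Casp1 (ENSMUSG00000025888) lies on chromosome 9 at 5298517 to 5307265 on the plus strand of GRCm38, with Casp12 (5345430 to 5373032) farther along the same strand. Its promoter from RefSeq on GRCm38.p6, chr9:5298267-5298566 on the plus strand, spans 250 bases before to 50 bases after the annotated start and is shown as that of the member lowest against WT among those measured. Capitals mark the E-box CACGTG, here at −137 from the start, which 7.15% of 32851 promoters of this length held on either strand.
Casp1: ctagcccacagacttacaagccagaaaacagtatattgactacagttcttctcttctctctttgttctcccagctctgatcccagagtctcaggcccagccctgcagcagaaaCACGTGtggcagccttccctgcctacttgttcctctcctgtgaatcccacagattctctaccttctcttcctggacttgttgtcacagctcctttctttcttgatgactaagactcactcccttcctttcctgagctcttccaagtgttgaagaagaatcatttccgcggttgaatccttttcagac
That window held 3 CpG dinucleotides, as did the Casp12 window, while the median promoter held 7. The windows of the other 6 members, taking the first listed for Xiap, held 16 to 46, and further Xiap windows held 5 and 2. A motif match describes letters in the window and no binding.

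By cluster, the Casp1 ratio was below 0 in 6 of the 6 clusters compared, and the interval excluded equal levels in 5 of them. In goblet-like cluster 2 Casp1 stood at 30.0 CPM (167 UMIs) in the KO library, against 61.9 CPM (620 UMIs) in the WT library, which made a log2 ratio of −1.05 (−1.30 to −0.80). Casp1 here was 1 of 2 member calls below WT in any cluster. Split by sex, cluster 2 gave −0.90 (−1.26 to −0.55) in female cells and −1.67 (−2.36 to −1.04) in male cells, the male value resting on 23 KO and 206 WT UMIs. In the other goblet-like cluster, cluster 1, the ratio was −0.54 (−0.77 to −0.31), and −0.17 (−0.59 to 0.25) in cells with at most 10% mitochondrial UMIs. In colonocyte-like cluster 4, where Casp1 had 61.1 CPM in the KO library and 72.1 CPM in the WT library, the ratio was −0.24 (−0.44 to −0.04). Its female cells gave −0.59 (−0.92 to −0.27) and its male cells 0.01 (−0.36 to 0.37). Whether the ratio differs between clusters was not tested.

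Among the 6 clusters compared, to which the orders below are limited, Casp1 levels differed within each library. In the WT library cluster 0 was highest at 83.3 CPM, followed by cluster 4, cluster 2, cluster 3, cluster 1 and cluster 5, the lowest at 38.7 CPM, and the intervals of clusters 4 and 2, of 3 and 1 and of 1 and 5 overlapped. In the KO library clusters 0 and 4 were highest, at 62.7 and 61.1 CPM with overlapping intervals, and cluster 5 lowest at 28.9 CPM. Cluster 2 was in the third place of the WT order and in the fifth place of the KO order.

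Cluster 0 was split by UMIs of the chemokine gene Ccl20 and the transcription factor gene Spib. Cells with at least 2 UMIs of these genes summed (181 KO and 43 WT cells, 59 of them within 1 UMI of that limit) had 97.3 CPM of Casp1 in the KO library and 90.5 CPM in the WT library, a log2 ratio of 0.10 (−0.35 to 0.58). The remaining 635 KO and 1063 WT cells of cluster 0 had 51.4 and 82.9 CPM, a log2 ratio of −0.69 (−0.89 to −0.50). Casp1 stood higher in the first set within the KO library, while the WT sets were close, with 53 UMIs behind the smaller one. Over all of cluster 0 the ratio was −0.41 (−0.57 to −0.25), and it was −0.999 (−1.42 to −0.59) in cells with at most 10% mitochondrial UMIs.

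**Figure D2:**
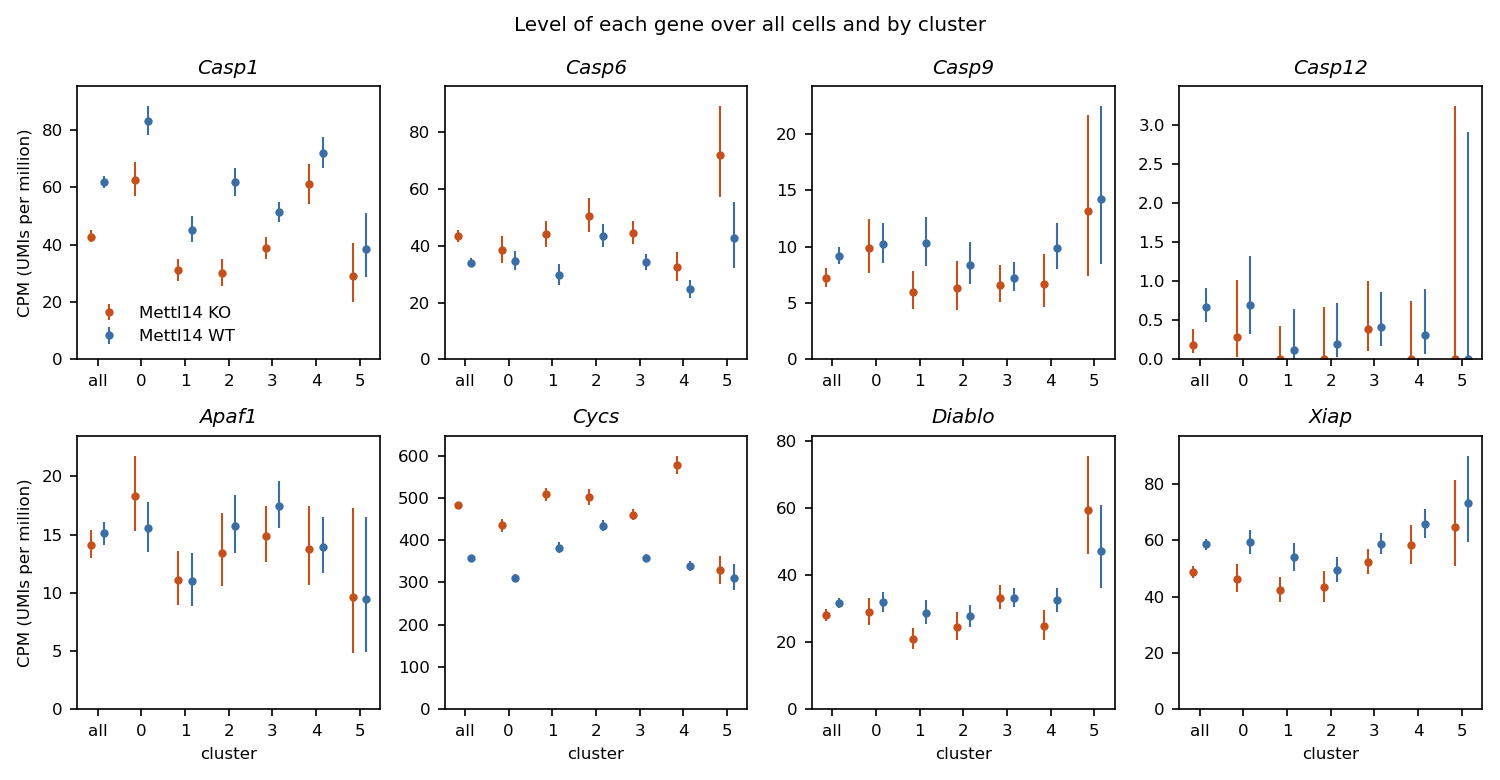
The level of each gene (vertical axis, CPM from 0, with exact 95% Poisson intervals) is plotted over all cells and for clusters 0 to 5 (horizontal axis), with the KO library left of the WT library at each position. Casp1 KO points lie below their WT points at every position, Cycs KO points lie above theirs with the smallest gap in cluster 5, and the scale of Casp12 is near 0.

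Casp12 was close to undetected in the 6 clusters compared. It had 7 UMIs (0.186 CPM, 0.0748 to 0.383) in the KO library, against 40 UMIs (0.664 CPM, 0.475 to 0.905) in the WT library, and was found in 0.192% of KO cells and 0.855% of WT cells. The log2 ratio over all cells was −1.84 (−3.24 to −0.66). Of the 40 WT UMIs, 18 lay in the 117 WT cells of cluster 6. Outside cluster 6 there were 6 KO and 22 WT UMIs, and the ratio was −1.21 (−2.80 to 0.14), a difference not detectable at this depth. In enteroendocrine-like cluster 5 both libraries had 0 UMIs, which allows up to 2.63 CPM in the KO library and 2.37 CPM in the WT library when 3 counts are taken as the limit.

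Cycs was the member furthest above its WT level. It had 18229 UMIs, or 484 CPM (477 to 491), in the KO library, against 21591 UMIs, or 359 CPM (354 to 363), in the WT library. Its log2 ratio was 0.43 (0.41 to 0.46), or 1.35-fold, with 0.44 (0.39 to 0.48) in female cells and 0.41 (0.36 to 0.47) in male cells. The ratio was above 0 in 6 of 6 clusters, with an interval excluding equal levels in 5. In colonocyte-like cluster 4 Cycs stood at 578 CPM in the KO library, against 339 CPM in the WT library, a log2 ratio of 0.77 (0.70 to 0.84), which passed the 1.5-fold rule. Female cells of that cluster gave 0.76 (0.64 to 0.88) and male cells 0.82 (0.69 to 0.95). Cluster 4 held the highest Cycs level of the 6 clusters in the KO library, while in the WT library cluster 2 was highest at 435 CPM. In enteroendocrine-like cluster 5, with 329 CPM in the KO library and 312 CPM in the WT library, the ratio was 0.08 (−0.13 to 0.28). The female cells of cluster 5 stood at −0.55 (−0.88 to −0.21), and its male cells at 0.14 (−0.37 to 0.63). In goblet-like cluster 2 the ratio was 0.21 (0.14 to 0.28), and 0.07 (−0.06 to 0.19) in cells with at most 10% mitochondrial UMIs.

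Cycs (ENSMUSG00000063694) lies on chromosome 6 at 50562563 to 50566538 on the minus strand. Under names of the form Cycs-ps, the annotation lists 2 pseudogene copies, Cycs-ps2 and Cycs-ps3, neither of them a row of the matrix. Copies under other names were not searched. Reads that match Cycs and a copy are an uncertain part of the Cycs count. Its promoter, chr6:50566520-50566819 on the minus strand (RefSeq, GRCm38.p6), is shown because Cycs was furthest above WT. Capitals mark, in order, the cAMP response element TGACGTCA, the core CGCATGCG bound by nuclear respiratory factor 1 and the GC box GGGCGG, each searched on both strands.
Cycs: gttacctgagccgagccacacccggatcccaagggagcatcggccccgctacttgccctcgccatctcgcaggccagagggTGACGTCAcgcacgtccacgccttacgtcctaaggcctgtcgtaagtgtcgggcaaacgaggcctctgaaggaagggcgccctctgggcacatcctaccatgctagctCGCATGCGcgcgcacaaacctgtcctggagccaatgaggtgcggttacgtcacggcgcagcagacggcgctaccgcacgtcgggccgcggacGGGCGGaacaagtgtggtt
The cAMP response element was at −169 and the nuclear respiratory factor core at −61 from the start. Among all promoters of this length 1.79% held the first motif, 1.87% the second and 35.7% the GC box.

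Cytochrome c also carries electrons between respiratory complexes III and IV, and 10 nuclear genes of those complexes were listed beside it. Of these 10, 1 (10%) was higher, 0 were lower and 9 were neither, with a median log2 ratio of 0.25. Among all measured genes 16.7% were higher and 16.2% lower. The higher gene was Uqcrfs1, the Rieske iron-sulfur subunit of complex III, at 498 CPM in the KO library, against 259 CPM in the WT library (0.94, 0.91 to 0.97). Cox6b1, a subunit of complex IV, was the gene whose pattern was most like that of Cycs over the sums by cluster and library, described at the end.

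Casp6 was above its WT level. It had 1636 UMIs, or 43.5 CPM (41.4 to 45.6), in the KO library, against 2051 UMIs, or 34.1 CPM (32.6 to 35.6), in the WT library, which made a log2 ratio of 0.35 (0.26 to 0.45). Female cells gave 0.48 (0.33 to 0.62) and male cells 0.18 (0.003 to 0.36). Above 0 in each of 6 clusters, it had an interval excluding equal levels in 4. In cluster 5, 82 KO UMIs gave 71.9 CPM and 54 WT UMIs gave 42.6 CPM, a log2 ratio of 0.75 (0.24 to 1.28), which passed the 1.5-fold rule. With equal weight for each cell that ratio was 0.48, short of 1.5-fold. Female cells of cluster 5 gave 1.03 (0.15 to 1.98) from 43 KO and 15 WT UMIs, and male cells 0.03 (−1.12 to 1.14) from 13 KO and 18 WT UMIs. In cluster 1 the ratio was 0.56 (0.33 to 0.80). Of the 6 clusters compared, Casp6 was highest in cluster 5 in the KO library. In the WT library clusters 2 and 5 led these clusters at 43.4 and 42.6 CPM with overlapping intervals. Among cycling-like cells of cluster 3, those with at least 20 UMIs of 6 mitotic genes (318 KO and 473 WT cells, 172 of them within 5 UMIs of that limit) had 50.8 CPM in the KO library and 33.2 CPM in the WT library (0.61, 0.37 to 0.85), and the others had 39.0 and 36.4 CPM (0.10, −0.18 to 0.39).

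The Casp6 gene (ENSMUSG00000027997) lies on chromosome 3 at 129901425 to 129914103 on the plus strand. Its promoter, chr3:129901165-129901464 on the plus strand (RefSeq, GRCm38.p6), is shown as the second member above WT, with 3 GC boxes, GGGCGG on either strand, in capitals.
Casp6: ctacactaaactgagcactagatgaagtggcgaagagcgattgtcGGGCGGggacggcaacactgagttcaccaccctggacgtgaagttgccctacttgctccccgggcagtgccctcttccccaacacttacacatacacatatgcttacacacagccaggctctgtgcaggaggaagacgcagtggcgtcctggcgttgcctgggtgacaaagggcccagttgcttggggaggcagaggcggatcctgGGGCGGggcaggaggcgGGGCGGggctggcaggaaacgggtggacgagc
None of the other motifs searched, which were the cAMP response element, the nuclear respiratory factor core, the E-box and the STAT element TTCNNNGAA, was found in that window.

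Of the apoptosome genes over all cells, Cycs was above WT as described, Casp9 was below it, and Apaf1 alone had an interval that included equal levels. Apaf1, the scaffold, had 532 UMIs, or 14.1 CPM (13.0 to 15.4), in the KO library, against 909 UMIs, or 15.1 CPM (14.1 to 16.1), in the WT library. Its log2 ratio of −0.10 (−0.25 to 0.06) had an interval that excluded a difference of 1.5-fold in either direction over all cells. By cluster it ranged from −0.23 to 0.24, above 0 in 3 clusters and below 0 in 3, and each interval included equal levels. In cells with at most 10% mitochondrial UMIs it was −0.63 (−1.51 to 0.20) in cluster 0, 0.68 (−0.23 to 1.65) in cluster 1 and −0.54 (−1.60 to 0.45) in cluster 4, so its direction by cluster was not settled at this depth. Apaf1 lies on chromosome 10 at 90989311 to 91082770 on the minus strand.

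Casp9, the initiator, had 271 UMIs, or 7.20 CPM (6.37 to 8.11), in the KO library, against 552 UMIs, or 9.17 CPM (8.42 to 9.97), in the WT library. The log2 ratio was −0.35 (−0.56 to −0.14). Cells thinned to 3000 UMIs gave −0.73 (−1.17 to −0.30), which passes 1.5-fold. In female cells the ratio was −0.22 (−0.55 to 0.10), and in male cells −0.36 (−0.77 to 0.04). In cells with at most 10% mitochondrial UMIs it was −0.18 (−0.57 to 0.20), and each of these last intervals included equal levels. By cluster the ratio ran from −0.79 to −0.05, below 0 in 6 of 6, with an interval excluding equal levels in 1. In goblet-like cluster 1, 51 KO UMIs gave 5.96 CPM and 89 WT UMIs gave 10.3 CPM, a log2 ratio of −0.79 (−1.31 to −0.28), the second call below WT. That ratio was −0.80 (−1.81 to 0.19) in cells with at most 10% mitochondrial UMIs, where the interval included equal levels, and −0.66 (−1.66 to 0.24) in male cells. Casp9 (chromosome 4, 141793612 to 141815976, plus strand) overlaps the pancreatic enzyme genes Cela2a and Ctrc on the other strand at its 3' end, and whether the counting used strand is not given in the sources used here. Of its WT UMIs, 4 lay in the 33 enzyme-rich WT cells, and without those cells the ratio was −0.35 (−0.56 to −0.14).

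Xiap and its antagonist Diablo were both slightly below WT over all cells. Xiap had 1833 UMIs, or 48.7 CPM (46.5 to 51.0), in the KO library, against 3522 UMIs, or 58.5 CPM (56.6 to 60.5), in the WT library, a log2 ratio of −0.26 (−0.35 to −0.18). Xiap is X-linked (42059679 to 42109656, plus strand), with −0.22 (−0.34 to −0.09) in female cells, and −0.39 (−0.55 to −0.23) in male ones. It was below 0 in 6 of 6 clusters, from −0.36 in cluster 0 to −0.17 in cluster 3, with an interval excluding equal levels in 3. In cells with at most 10% mitochondrial UMIs Xiap was at −0.77 (−1.28 to −0.29) in cluster 0, past 1.5-fold, and at 0.22 (−0.46 to 0.89) in cluster 5. Of the 6 clusters compared, cluster 5 had the highest Xiap level in both libraries. It was 64.9 CPM in the KO library and 73.4 CPM in the WT library, with intervals that overlapped those of cluster 4.

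Diablo had 1054 UMIs, or 28.0 CPM (26.3 to 29.7), in the KO library, against 1905 UMIs, or 31.6 CPM (30.2 to 33.1), in the WT library, for a log2 ratio of −0.18 (−0.29 to −0.07). In female cells the ratio was −0.13 (−0.30 to 0.04), in male cells −0.17 (−0.38 to 0.03) and after thinning −0.15 (−0.37 to 0.06). In cells with at most 10% mitochondrial UMIs it was −0.18 (−0.38 to 0.02), and each of these intervals included equal levels. By cluster it was −0.47 (−0.76 to −0.19) in cluster 1 and −0.39 (−0.70 to −0.08) in cluster 4. Cluster 5 gave 0.33 (−0.19 to 0.86) and cluster 3 gave 0.004 (−0.195 to 0.20). Cluster 0 gave −0.14 (−0.39 to 0.10) and cluster 2 gave −0.18 (−0.48 to 0.13). Of the 6 clusters compared, enteroendocrine-like cluster 5 had the highest Diablo level in both libraries. That level was 59.6 CPM in the KO library and 47.3 CPM in the WT library. In both, its interval did not overlap that of cluster 3, the next in the order. Diablo (chromosome 5, 123509765 to 123524176, minus strand) overlaps B3gnt4 on the other strand and the annotated gene Gm49027 on its own strand, so its counts are uncertain to that extent.

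Counted by cluster, the members were called as follows. In cluster 0, 0 of 7 members with enough UMIs were higher and 0 lower, beside 19.9% and 12.9% of all genes measured there. In cluster 1, 0 were higher and 1 (Casp9) lower of 7, beside 13.1% and 16.8%. In cluster 2, 0 were higher and 1 (Casp1) lower of 7, beside 14.4% and 16.7%. In cluster 3, 0 were higher and 0 lower of 7, beside 17.5% and 11.7%. In cluster 4, 1 (Cycs) was higher and 0 lower of 7, beside 16.0% and 12.7%. In cluster 5, 1 (Casp6) was higher and 0 lower of 5, beside 14.9% and 9.76%. No member was called in more than 1 cluster by these values, but other settings added calls. Casp6 in cluster 1 was at 0.60 (0.36 to 0.84) without enzyme-rich cells and cells with immune markers. With equal weight for each cell, which gives no interval and so makes no call, it was at 0.72. Casp1 in cluster 1 was at −0.61 (−0.84 to −0.38) under the scaling without mitochondrial, haemoglobin or ribosomal-protein genes. Casp9 in cluster 4, at −0.57 (−1.18 to 0.02) as reported, was at −0.67 (−1.29 to −0.09) under that scaling. It was at −0.59 (−1.22 to −0.0007) without enzyme-rich cells and cells with immune markers. With equal weight for each cell it was at −0.32, and in cells with at most 10% mitochondrial UMIs at 0.16 (−0.99 to 1.28). Casp1 in cluster 5 passed 1.5-fold at −0.59 with equal weight for each cell, which likewise made no call. Its interval as reported, −1.10 to 0.25, included equal levels. Casp1 and Xiap in cluster 0 passed 1.5-fold in cells of low mitochondrial share, with the values given above.

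The share of cells with a UMI depends on depth, and the KO cells were shallower. Casp1 was found in 32.2% of KO cells and 51.6% of WT cells. With each cell thinned to 3000 UMIs, which kept 3556 KO and 4038 WT cells, the shares were 12.7% of KO cells (11.6 to 13.8, exact Clopper-Pearson interval) and 16.4% of WT cells (15.2 to 17.5). Xiap stood at 36.1% of KO and 49.4% of WT cells, and at 13.4% and 16.2% after thinning. Cycs stood at 91.7% of KO and 90.9% of WT cells, and at 70.1% and 61.2% after thinning. Casp6, at 33.6% of KO and 35.8% of WT cells, was found after thinning in 12.8% (11.7 to 13.9) and 9.61% (8.72 to 10.6), so the order of its shares turned with depth and followed the CPM only at equal depth. For Apaf1 the thinned shares were 4.11% (3.48 to 4.81) and 4.09% (3.50 to 4.74). No cell type sure to lack these genes was among the clusters, so the share that free RNA gives was not measured. The transcripts were spread over many cells, with at most 31 Cycs UMIs in a KO cell and 47 in a WT cell and at most 10 UMIs in any cell for each other member.

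**Figure D3:**
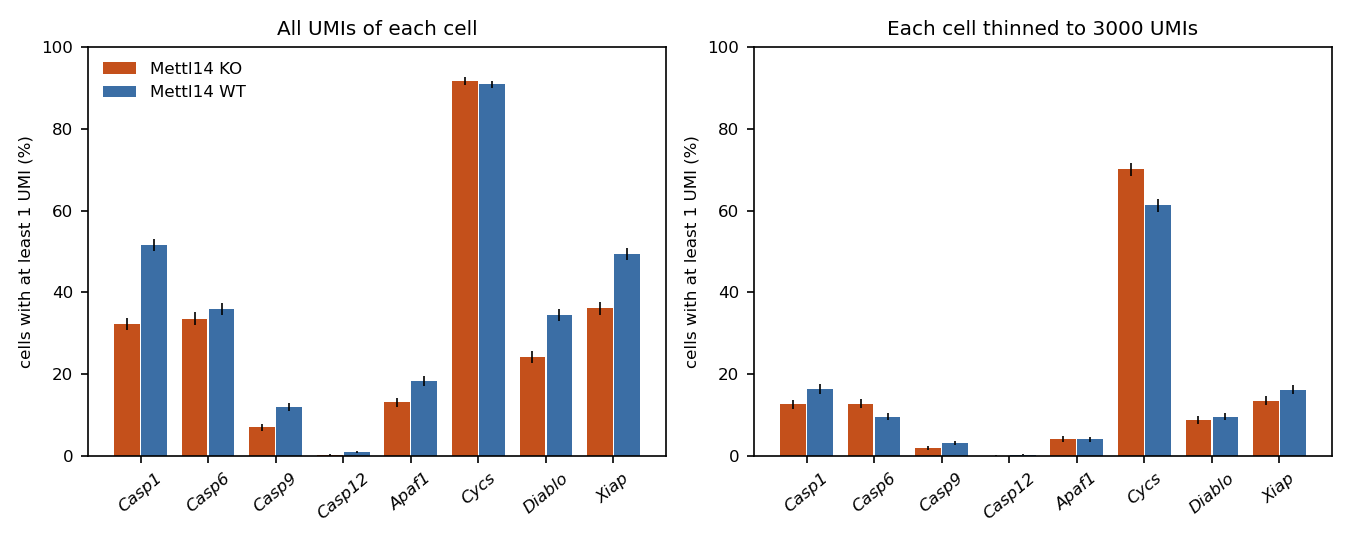
The share of cells with at least 1 UMI of each gene (vertical axis, percent from 0 to 100, with exact 95% binomial intervals) is plotted for the KO library, left, and the WT library, right, with all UMIs of each cell in the left panel and with each cell thinned to 3000 UMIs in the right panel. Thinning narrows the gaps of Casp1, Xiap and Diablo, puts the KO share of Casp6 above its WT share and widens the gap of Cycs, whose KO share is higher in both panels.

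The other genes of these pathways, taken from 5 lists, held members on both sides. Of all 49 with enough UMIs, 22.4% (11) were higher and 10.2% (5) were lower, beside 16.7% and 16.2% of all measured genes, and each list held only 6 to 14 measured genes. Of 6 other caspases, 1 was higher, 1 lower and 4 neither, with a median log2 ratio of −0.15. Casp2, an initiator that acts through the PIDDosome, stood at 17.0 CPM in the KO library, against 32.5 CPM in the WT library (−0.94, −1.07 to −0.81). Casp14, a caspase of keratinising epidermis, stood at 3.27 CPM in the KO library, against 1.51 CPM in the WT library (1.11, 0.71 to 1.52).

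Beside the same 16.7% and 16.2% of all genes, of 11 measured genes of the IAP (inhibitor of apoptosis protein) family and its antagonists, 4 (36.4%) were higher, 2 (18.2%) lower and 5 neither, with a median of 0.09. Birc3, which encodes cIAP2 and is a target of NF-κB, stood at 55.0 CPM in the KO library, against 17.4 CPM in the WT library (1.66, 1.55 to 1.77). Xaf1, whose product binds Xiap and is induced by interferon, stood at 7.39 CPM in the KO library, against 3.67 CPM in the WT library (1.01, 0.75 to 1.27). Birc5, which encodes survivin and is expressed in dividing cells, was at 0.68 (0.62 to 0.73). Naip6, a sensor protein gene in a family of close copies between which reads could be split, was at −0.79 (−0.93 to −0.65). Of that family, Naip1 was on the other side at 0.74 (0.62 to 0.86), and Naip2 and Naip5 were neither higher nor lower.

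Of 14 genes of mitochondrial release and execution, 2 (14.3%) were higher, 1 (7.14%) lower and 11 neither, with a median of −0.07. Among all measured genes 16.7% were higher and 16.2% lower. Bax, which forms pores in the outer mitochondrial membrane, stood at 279 CPM in the KO library, against 102 CPM in the WT library (1.46, 1.41 to 1.51). Endog, a nuclease of mitochondria, was at 0.75 (0.67 to 0.82). Bid, which links death receptors to mitochondria, stood at 7.17 CPM in the KO library, against 11.8 CPM in the WT library (−0.72, −0.93 to −0.52).

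Inflammasome genes lay on both sides of equality. Of 8 with enough UMIs, 3 (37.5%) were higher, 1 (12.5%) lower and 4 neither, beside 16.7% and 16.2% of all genes, with a median of 0.50, and 4 others on the list had too few UMIs. Pycard, the adaptor that recruits Casp1, stood at 786 CPM in the KO library, against 495 CPM in the WT library (0.67, 0.64 to 0.69). The DNA sensor gene Aim2 was at 0.70 (0.60 to 0.79), and Nlrc4, which encodes a sensor partner of the Naip proteins, at 0.61 (0.46 to 0.77). Il18, the epithelial cytokine that Casp1 matures, stood at 13.1 CPM in the KO library, against 34.2 CPM in the WT library (−1.39, −1.53 to −1.24).

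**Figure D4:**
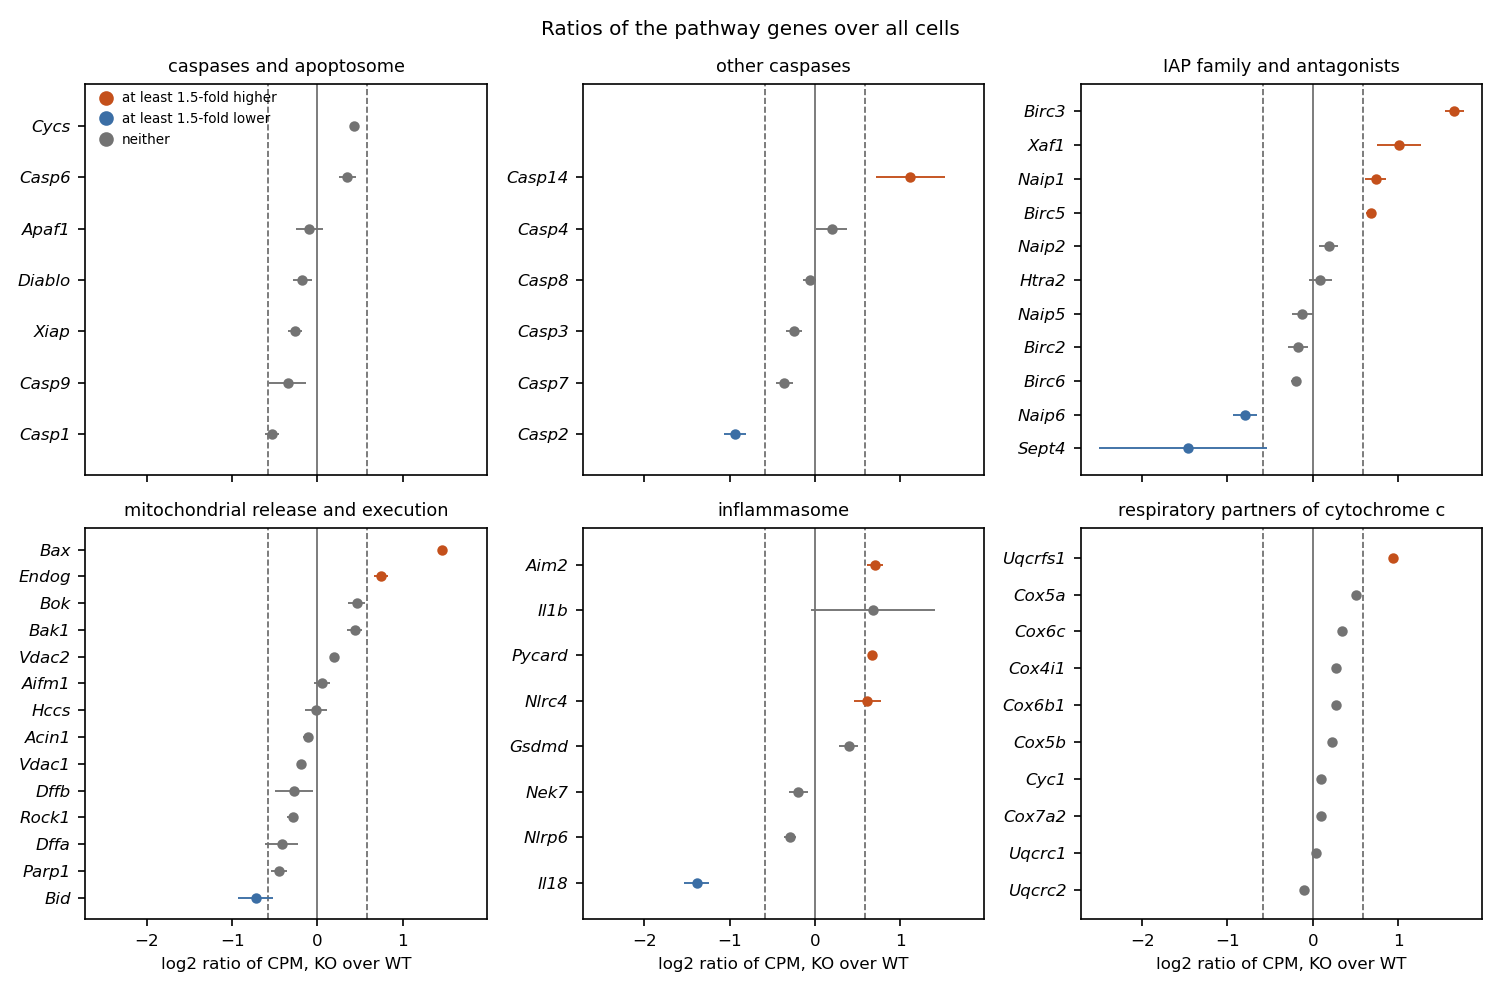
The log2 ratio of KO CPM over WT CPM over all cells (horizontal axis) is plotted for each measured gene of the 8 members and of the 5 pathway lists, with 95% counting intervals, 0 as a solid line and 1.5-fold as dashed lines. The 7 measured members lie between the dashed lines, and the genes furthest out are Birc3 and Bax to the right and Sept4 and Il18 to the left.

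Across the 13 sums by cluster and library with at least 50 cells, the members varied in different ways. Pearson's r of log2(CPM + 10) was 0.81 for Casp9 with Diablo, 0.77 for Casp9 with Xiap and 0.71 for Diablo with Xiap. It was −0.85 for Cycs with Casp9, −0.84 for Cycs with Xiap and −0.74 for Casp1 with Casp6. These are descriptions over points that share libraries and depth, and the WT sum of cluster 6, in which Xiap stood at 100.5 CPM and Cycs at 221 CPM, is among them. By the same measure, over 8910 genes with at least 20 CPM in a sum, the genes most like Casp1 were Fbp2 (r of 0.92), Glrx (0.90) and Fam234a (0.89). Those most like Cycs were Cox6b1 (0.96), Slc25a5 (0.95) and Pglyrp1 (0.95). Those most like Casp6 were Cables2 and Wipi1 (0.94 each) and Slc7a5 (0.92). For Casp9 they were Grcc10 (0.96), Zfp865 (0.96) and Nbdy (0.93), and for Apaf1 Lrrk1 (0.87), Gstk1 (0.85) and Htra2 (0.85). For Diablo they were Rere (0.98), Cnot4 (0.97) and Cpsf6 (0.97), and for Xiap Reep3 (0.98), Rnf19a (0.97) and Aldh7a1 (0.96).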

How the data were processed

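Live EpCAM-positive colonic cells were profiled with 10x Genomics 3' chemistry, per the labels' protocols. Raw UMI counts, deposited by the authors as a matrix of genes by cells, came with a table of the library and cluster of each cell. Cell Ranger, bcl2fastq and the mm10 build are named per the submitters' processing notes, and versions, cell filter and clustering method are not given in the sources used here. Counts were summed over cells and divided by the summed total (CPM). KO CPM was divided by WT CPM and given as log2 with exact conditional binomial 95% intervals, and levels have exact Poisson intervals. The members and lists were chosen with earlier results of these data known. Named genes were all members, up to 4 called genes per list by interval bound, and the 3 genes most like each member with at least 500 UMIs. The other Naip genes were named beside Naip6 outside that rule. No doublets were removed, and cells with Xist and Y-linked UMIs (304 KO, 437 WT) were left out as an alternative, as doublet candidates. Clusters needed at least 50 cells in each library. Alternatives changed scaling (edgeR 4.0.16 TMM, DESeq2 1.42.0 size factors), cells kept, depth, weights and thresholds. In simulated counts for 13334 genes, 2-fold and 4-fold differences between the summed libraries were called for 97% and 100% of changed genes. Of the intervals, 95.6% held the true ratio. The simulated counts had counting error only, as the intervals assume, so they cannot show how variation between animals or preparations affects the calls. Gene positions come from GENCODE vM21 (GRCm38). Python 3.11.15, scipy 1.17.1 and R 4.3.3 were used.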

Additional observations from a re-analysis of the deposited data

Results flagged for a closer look

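Casp12 in cluster 6 stands apart in cells that no comparison by cluster uses, although they enter the values over all cells and the WT sum enters the correlations. Cluster 6 held 31 KO and 117 WT cells, and without it the Casp12 ratio was −1.21 in place of −1.84. The 31 KO cells held 1 Casp12 UMI, or 8.36 CPM with a Poisson interval of 0.212 to 46.6, and the 117 WT cells held 18, or 28.3 CPM with an interval of 16.8 to 44.7. In the WT library that interval lay above those of all 6 compared clusters, whose Casp12 levels ran from 0 to 0.693 CPM. Summed over 7 stromal marker genes, cluster 6 had 4321 CPM in the KO library and 6757 CPM in the WT library, none of the 7 was at 0 in either, and 10 immune marker genes summed to 75.2 CPM in the KO library and 2764 CPM in the WT library. Epcam UMIs were found in 48.4% of its KO cells and 50.4% of its WT cells. Of the cell type marker lists, that of tuft cells, which are epithelial, had the highest mean z score in cluster 6, at 2.33. All 5 tuft genes were detected, but 0 of them were among the 10 leading genes of the cluster, which began with Col3a1, Col1a2 and Col1a1. The part of these cells' makeup in the Casp12 level was not tested.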

How the results depend on the processing

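Of 103 recomputed ratios of the 8 members over all cells, 90 stayed within the interval of the reported value, 13 moved outside it and 102 kept its sign. The exception in sign was Apaf1, at 0.003 after thinning. By cluster, 147 of 160 stayed within the interval and 145 kept the sign. Thinning each cell to 3000 UMIs gave −0.40 for Casp1, −0.73 for Casp9, 0.38 for Cycs and, on 1 KO UMI, −3.28 (−8.70 to −0.49) for Casp12. In cells with at most 10% mitochondrial UMIs Cycs was at 0.36 and Casp12 at −3.75 (−9.13 to −1.07). Cycs was at 0.36 with scaling without mitochondrial, ribosomal-protein and haemoglobin genes, 0.47 with edgeR TMM scaling, 0.48 with DESeq2 size factors and 0.39 with equal weight for each cluster. Casp6 was at 0.48 in female and 0.18 in male cells, and Xiap at −0.39 in male cells. The cause of these shifts was not tested. The count of members at least 1.5-fold lower, 0 as reported, was 1 with scaling without those genes and in female cells (Casp1), 1 after thinning (Casp9) and 1 with no minimum of UMIs (Casp12). The count of members higher was 0 in every setting run. At 2-fold 4 list genes were higher and 2 lower, and the share of all genes at 2-fold was not computed. Leaving out cluster 6 was chosen after seeing the data. No paired analysis was possible because there was 1 library a genotype. Depth limits Casp12 and the smaller clusters most.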
